A study of Mus musculus with 61 samples.

Results

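C57BL/6J and C3H/HeJ are inbred laboratory mouse strains, and their gene expression was compared across 5 regions. They were the hippocampus, the hypothalamus, the pituitary gland, the periaqueductal gray (pag) of the midbrain, and the bnst, the bed nucleus of the stria terminalis in the forebrain. The arrays were picked by the strain in their titles, 10 of C57BL/6J and 11 of C3H/HeJ, which makes 21 of the 61 arrays of a study of 6 strains. Each strain had 2 arrays of each region, except that C3H/HeJ had 3 of the bnst. All mice were wild type males, 8 weeks old, bought from the same breeder and housed alone for a week, and neither strain received a treatment. A hippocampus array held tissue of 1 mouse, an array of the bnst, hypothalamus or pag held tissue of 2 or 3 mice, and a pituitary gland array held glands of 5 mice, so mouse-to-mouse variation within a pool is not seen. Replicates came from different animals.

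Both strains breed true, so that each mouse of a strain carries nearly the same genome and a difference between the strains can follow DNA differences anywhere in it. C57BL/6J is the strain of the mouse reference genome and carries the b haplotype of the major histocompatibility complex (MHC), while C3H/HeJ carries the k haplotype. C3H/HeJ is further known for a Tlr4 mutation that makes it insensitive to bacterial endotoxin, for a Pde6b mutation that destroys its rods, and for making melatonin, which C57BL/6J largely lacks. On the Affymetrix mouse genome 430 2.0 array, a gene is measured by one or more probe sets of short oligonucleotides, and a base that differs from the probe lowers the signal. A low signal of either strain can thus be less RNA or a mismatch, and which of these held was not tested.

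The deposited values are 1 linear signal for each probe set and array, in arbitrary units that the authors' software scaled. Array means lay between 180 and 196 and array medians between 44.5 and 67.1, and log2 signals of arrays of the same group correlated with r between 0.956 and 0.984. In all 21 arrays the marker genes of the labelled region were brighter, on the log2 scale, than on any array of another region. For the bnst the margin was small, at 8.43 for its lowest array and 8.34 for the highest array of another region. A few arrays were high in marker genes of another tissue. Summed over 13 choroid plexus genes, the C3H/HeJ bnst arrays read 10752, 6931 and 460 and the C57BL/6J bnst arrays 1022 and 3188. Growth hormone (Gh) read 5421 on 1 C57BL/6J hypothalamus array and 13.4 on the other, and 2130 on 1 C57BL/6J hippocampus array and 48.5 on the other. The myelin gene Mbp read 3414 on 1 C3H/HeJ pituitary gland array and 60.1 on the other. Counts without these last 3 arrays, a choice made after the data were seen, are given below as those without the 3 arrays high in Gh or Mbp. Gh also read 44.4 and 1089 on the C3H/HeJ pag arrays and 436 and 212 on the C57BL/6J pag arrays. These pag arrays were kept in those counts.

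Over the 5 regions together, with the region as a block, 4018 of 43125 probe sets differed between the strains (9.32%; limma, Benjamini-Hochberg adjusted p under 0.05). Of all probe sets, 5.19% were called higher in C57BL/6J (2237) and 4.13% lower (1781). The median size of a called difference was 0.48 on the log2 scale, and 602 differences were larger than 1, 456 higher and 146 lower in C57BL/6J. Signals under 12.8, the 20th percentile of all values and called the floor here, were raised to it before log2 was taken, so a log2 difference of a dim probe set is understated. The split between higher and lower depended on scaling: 55.7% of calls were higher in C57BL/6J on the deposited signals, 33.7% when each array was brought to the same median, and 52.1% after quantile normalization. Without the 3 arrays high in Gh or Mbp, 2817 probe sets were called.

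Tested 1 region at a time on 44065 probe sets, the strains differed at 5146 in the pituitary gland (11.7%), 1692 in the bnst (3.84%), 1468 in the hypothalamus (3.33%), 1396 in the hippocampus (3.17%) and 1163 in the pag (2.64%). The pituitary gland thus had over 3 times the calls of any brain region. These counts rested on few arrays, and leaving out 1 array left as few as 839 in the bnst (without C57BL/6J replicate 2), 719 in the hippocampus and 682 in the hypothalamus (each without C3H/HeJ replicate 2), 693 in the pag (without C57BL/6J replicate 2) and 2391 in the pituitary gland (without C3H/HeJ replicate 2). Without the 3 arrays high in Gh or Mbp, 2212 were called in the pituitary gland, 1577 in the bnst, 1087 in the pag, 776 in the hippocampus and 758 in the hypothalamus. With equal array medians the share of pituitary calls that were higher in C57BL/6J moved from 57.8% to 26.5%, and that of bnst calls from 58.9% to 36.0%. Pag calls moved from 62.2% to 76.3%, whereas hippocampus (62.0% and 54.7%) and hypothalamus (66.8% and 67.5%) moved less. Most called probe sets were called in a single region (5656), 630 in 2, 317 in 3, 277 in 4 and 378 in all 5. Of the 277, 119 were called in the 4 brain regions and not in the pituitary gland.

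**Figure D1:**
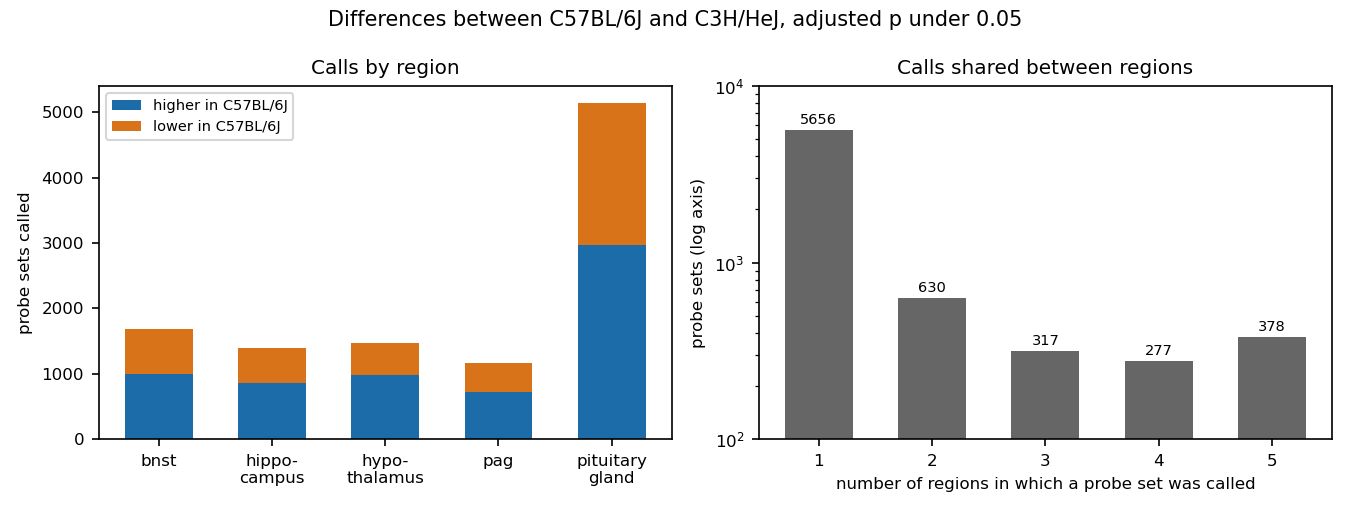
Left, the number of probe sets called between the strains in each region (adjusted p under 0.05), split into those higher (blue) and lower (orange) in C57BL/6J. Right, the number of probe sets called in 1 to 5 regions, on a log axis. The pituitary gland bar reaches 5146 against 1163 to 1692 for the brain regions, and the bars on the right fall from 5656 to 277 and rise again to 378 at 5 regions.

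Differences that held in all 5 regions, in the same direction, were found at 377 probe sets (0.856% of 44065), 260 higher and 117 lower in C57BL/6J. For these 377 the median size of the mean difference was 1.57 on the log2 scale (2.96-fold), against 0.11 for all tested probe sets. The smallest was 0.28 and the largest 5.29. Of the 377, 41 (10.9%) also had a strain difference that varied among regions, against 2.85% of all tested probe sets. Without the 3 arrays high in Gh or Mbp, 259 held in all 5 regions. Arrays of the strains did not overlap in any region for 377 of the 377. The choice by calls in every region, with 2 or 3 arrays a strain, nearly fixed this outcome, so it adds no support.

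The largest difference among the named genes, those with a single-gene probe set and a mean signal over 100 in the brighter strain, was at Prune2, which encodes a large protein with a BCH domain, on chromosome 19. The 10 C57BL/6J arrays read from 797 to 1467 with a median of 1108, and the 11 C3H/HeJ arrays from 17.8 to 53.7 with a median of 26.3. No C3H/HeJ array came near any C57BL/6J array in any region. C57BL/6J was 36.7-fold higher by mean signal, a log2 difference of 5.26 ± 0.14 (SE; adjusted p = 5.47e-15, limma). C57BL/6J stood alone among the 6 strains, since the other four strains averaged 27.7 to 34 at this probe set. Another probe set of Prune2 went the other way, at 323 in C57BL/6J and 663 in C3H/HeJ by mean signal, and was likewise called in all 5 regions. The remaining Prune2 probe sets, at mean signals of 33.1 to 63.3, were not called over the regions together, and 1 of them was lower in C57BL/6J in the pag (−1.14).

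Lin7c encodes a PDZ-domain scaffold that, with Cask and Apba1, places receptors and channels at the synapse. Here C3H/HeJ stood alone: its arrays read from 12.3 to 123 with a median of 19.2, against 392 to 893 with a median of 557 in C57BL/6J, and the other four strains averaged 583 to 624. The difference was 4.65 ± 0.27 (adjusted p = 3.39e-10, limma), from 3.89 to 5.50 across the regions. The other 3 Lin7c probe sets were also called higher in C57BL/6J in all 5 regions, by 2.79, 3.90 and 0.94, with C3H/HeJ means of 27.4, 21.2 and 243. All 4 probe sets thus had the same direction, with sizes between 0.94 and 4.65. Of the 17 measured genes of the Lin7 and Cask complex, 1 was higher (Lin7c) and 2 were lower in C57BL/6J, namely the membrane-associated scaffolds Mpp2 (−0.40) and Mpp3 (−0.42), and the list's median was −0.05. Lin7a, Lin7b and Cask themselves were not called over the 5 regions. Of all 17692 measured genes, each by its brightest probe set, 4.17% were higher and 5.53% lower. Counts this small are not read as a trait of the list, and Lin7c was named for its large difference.

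Other genes higher in C57BL/6J in every region were Rpgrip1, a ciliary partner of the retinitis pigmentosa GTPase regulator (median 792 against 31.7; difference 4.48 ± 0.13), and Pttg1, the securin that holds separase inactive until anaphase (median 1394 against 87.9; difference 3.98 ± 0.11). C57BL/6J was the highest of the 6 strains at both. All 3 Pttg1 probe sets were called higher in C57BL/6J, while no other tested Rpgrip1 probe set was called. The kinase Tnik (3.77), the DNA-binding protein Ssbp2 (3.59), the DNA-repair protein Trp53bp1 (3.50), 4933439C10Rik (3.45), the phosphoinositide phosphatase Mtmr7 (3.35) and the peroxide-reducing enzyme Prdx2 (3.30) came next. At Ssbp2, 10 of 11 C3H/HeJ arrays lay at the floor, as did 8 at Trp53bp1. At Prdx2 a brighter probe set went slightly the other way, at mean signals of 1413 in C57BL/6J and 1687 in C3H/HeJ (difference −0.26 ± 0.04). A brighter probe set was called lower in C57BL/6J over the regions together at Tnik (417 against 525) and at Ssbp2 (286 against 377). The brightest probe set of each, at 598 and 617 for Tnik and 559 and 563 for Ssbp2, was not called over the regions together. At Trp53bp1 the brightest, at 1101 and 1200, was not called, while another was higher in every region (3.36). The other probe sets of 4933439C10Rik and Mtmr7 were called higher over the regions together.

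Among named genes lower in C57BL/6J in every region, Tmem87a, a Golgi membrane protein, had the largest difference: C57BL/6J arrays read from −7.70 to 28.6 and C3H/HeJ arrays from 242 to 520 (difference −4.41 ± 0.15). C57BL/6J alone lacked this signal, since the other four strains averaged 336 to 362. Cap1, a recycler of actin monomers, read from 35.7 to 89 in C57BL/6J with a median of 62.9, and from 460 to 864 in C3H/HeJ with a median of 564. Its difference was −3.35 ± 0.11 (9.59-fold), and its other probe set had means of 109 and 889 and the same direction in every region. Hbegf, a ligand of the epidermal growth factor receptor, read from 75.3 to 148 in C57BL/6J and from 339 to 649 in C3H/HeJ (difference −2.12 ± 0.12). At Hbegf it was C3H/HeJ that stood apart, with the other four strains averaging 88.4 to 110.

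Further genes lower in C57BL/6J throughout were the p38 kinase Mapk14 (−3.64), Zfp704 (−3.30), the histone chaperone subunit Supt16 (−2.69), the translation factor Paip1 (−2.66), the microtubule plus-end protein Clasp2 (−2.39), 1500011B03Rik (−2.21), the phosphoinositide phosphatase Inpp4a (−2.11) and the orphan receptor Gprc5b (−2.09). All 10 C57BL/6J arrays were at the floor at Mapk14 and at Zfp704. None of the other Mapk14 probe sets was called lower in C57BL/6J, and 1 was called higher. Brighter probe sets of Zfp704, Paip1, 1500011B03Rik and Inpp4a were not called over the regions together. Another probe set of each of Supt16, Paip1 and Clasp2 was lower in every region. Pdxdc1, with a pyridoxal-dependent decarboxylase domain, was called in every region in both directions: 1 probe set read 337 to 749 in C57BL/6J against 14 to 85.7 in C3H/HeJ, and another 6.93 to 33.8 against 388 to 615. At both Pdxdc1 probe sets DBA/2J was close to C3H/HeJ and the other three strains to C57BL/6J.

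**Figure D2:**
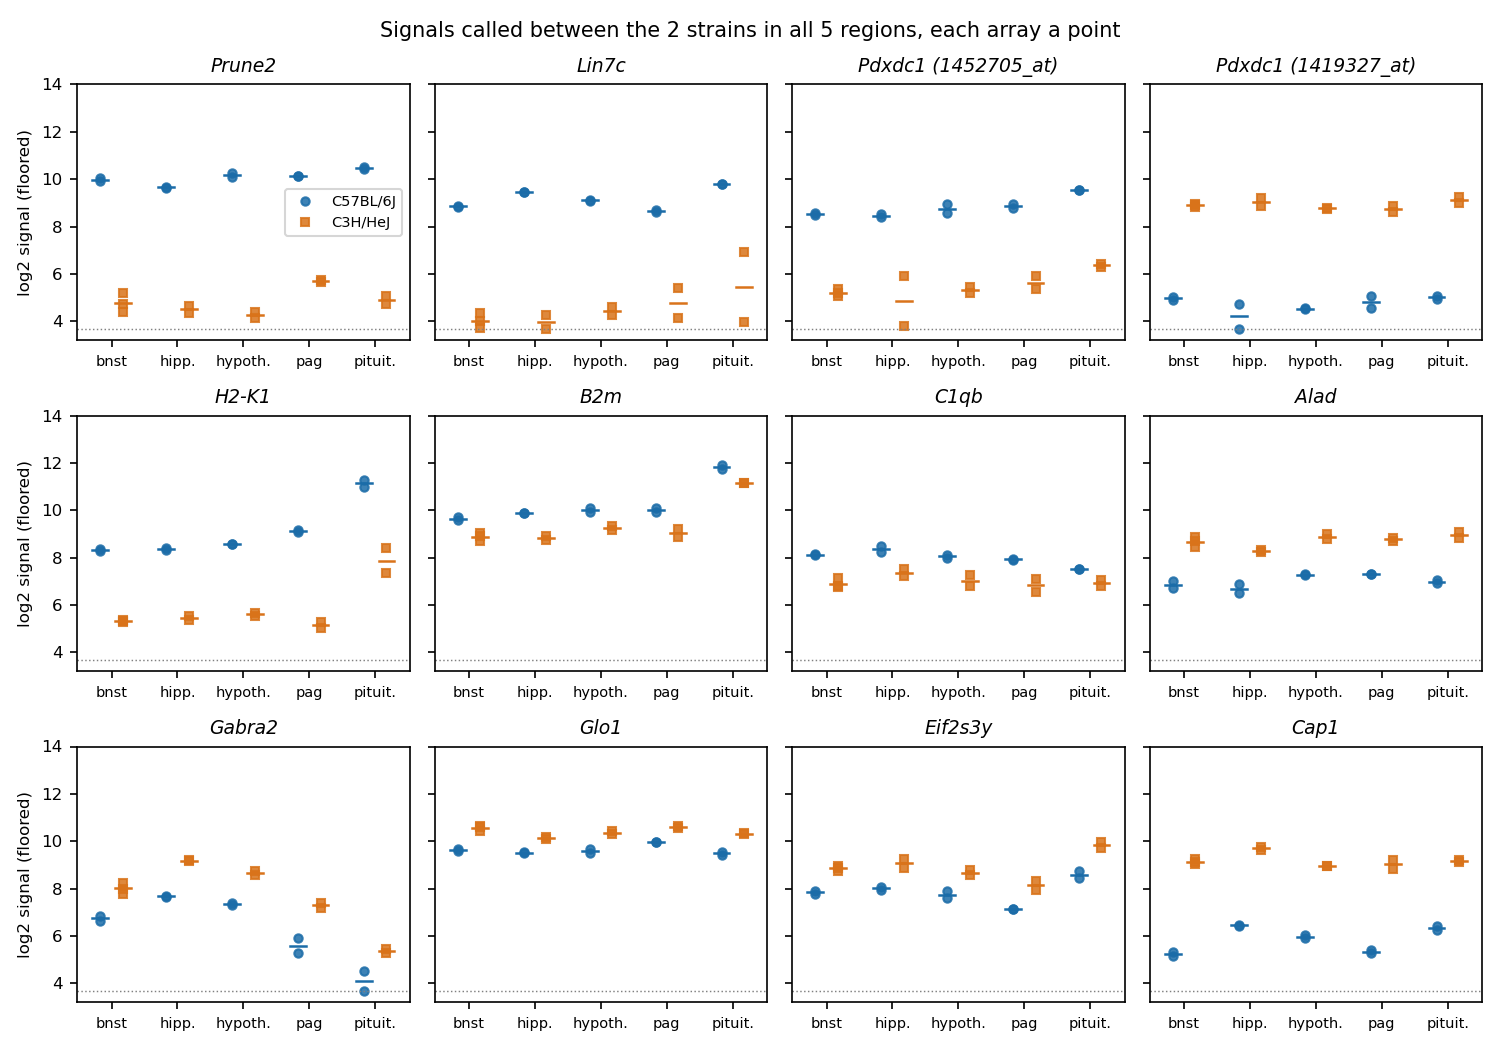
Log2 signal (floored) of 12 probe sets by region, with each array a point, group means as short lines and the floor as a dotted line. The strains do not overlap in any region of any panel, from the 36.7-fold gap of Prune2 to the −0.76 log2 gap of Glo1, and the Pdxdc1 panels show gaps of opposite sign.

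How far a called probe set spoke for its gene was checked on the other probe sets. Of the 377, 286 named a single gene, which gave 245 genes, and 210 of these had other tested probe sets. Leaving out every probe set that was itself called in all 5 regions, in either direction, 470 other probe sets remained. Of these, 138 (29.4%) were called over the 5 regions in the same direction, 30 (6.38%) in the opposite direction, and 302 (64.3%) were not called. Of all probe sets naming a single gene, 9.70% were called. Genes with 2 or more probe sets called in all 5 regions numbered 32, and 2 of them held both directions.

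**Figure D3:**
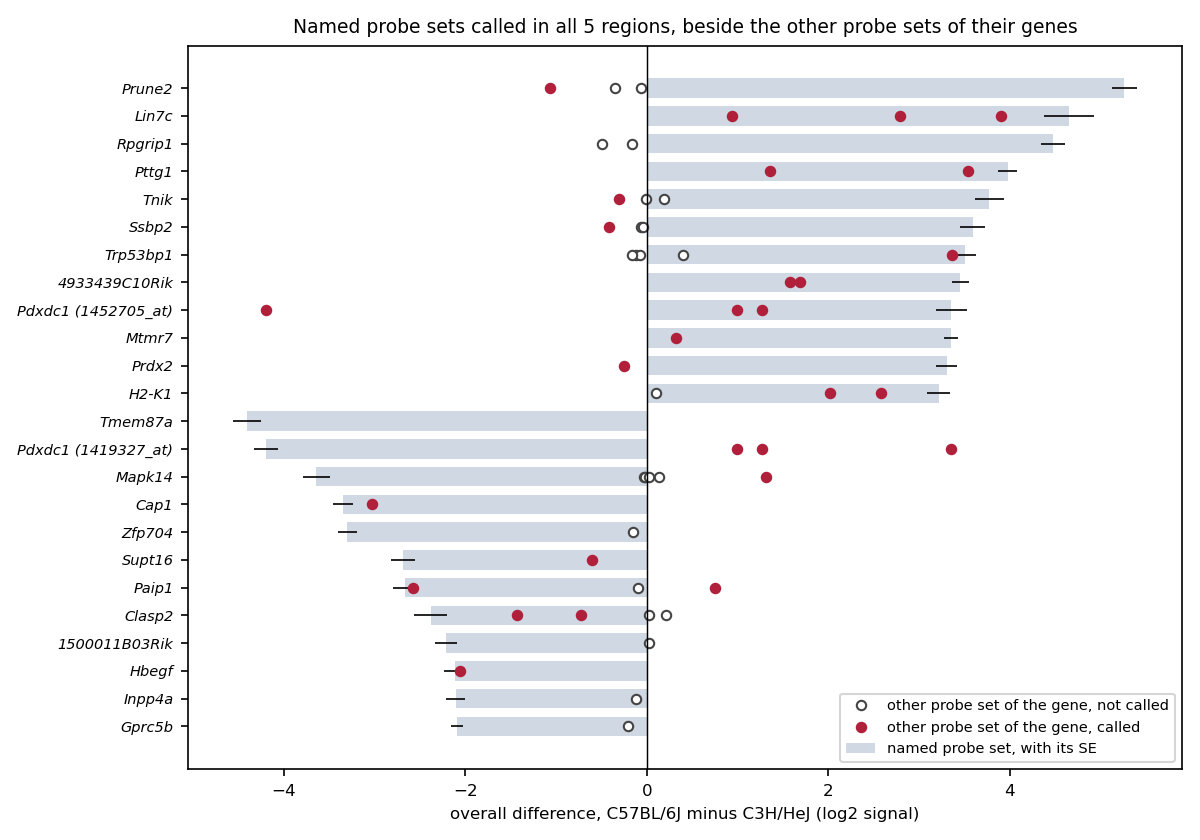
Overall log2 difference, C57BL/6J minus C3H/HeJ, of the 24 named probe sets called in all 5 regions (bars, with SE), and of the other probe sets of the same genes (red points called, open points not called). The other probe sets of Lin7c, Pttg1, Cap1 and Hbegf lie on the side of their bar, whereas those of Ssbp2, Mapk14 and Prdx2 lie near 0 or on the other side.

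By chromosome, 0.835% of the probe sets naming a single gene were called in all 5 regions. The share was 1.64% on chromosome 13 (22 of 1343), 1.60% on chromosome 4 (33 of 2058) and 1.43% on chromosome 17 (21 of 1467), where the MHC lies, and 0 of 1348 on chromosome 15. Genes next to each other formed 10 runs with 21 genes among 244 placed genes. The longest was on chromosome 14, where Hnrnpc and Supt16 were lower and Rpgrip1 was higher in C57BL/6J. Alad and its neighbour Hdhd3 were both lower.

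The other four strains were placed by whether their mean over the regions was nearer C57BL/6J or C3H/HeJ, as a description. Of the 377 probe sets, 129S6/SvEvTac was nearer C57BL/6J at 188 (49.9%), FVB/NJ at 187 (49.6%), A/J at 147 (39.0%) and DBA/2J at 130 (34.5%). C57BL/6J stood alone at 100 (26.5%), where none of the other four strains was nearer to it. C3H/HeJ stood alone at 45 (11.9%).

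**Figure D4:**
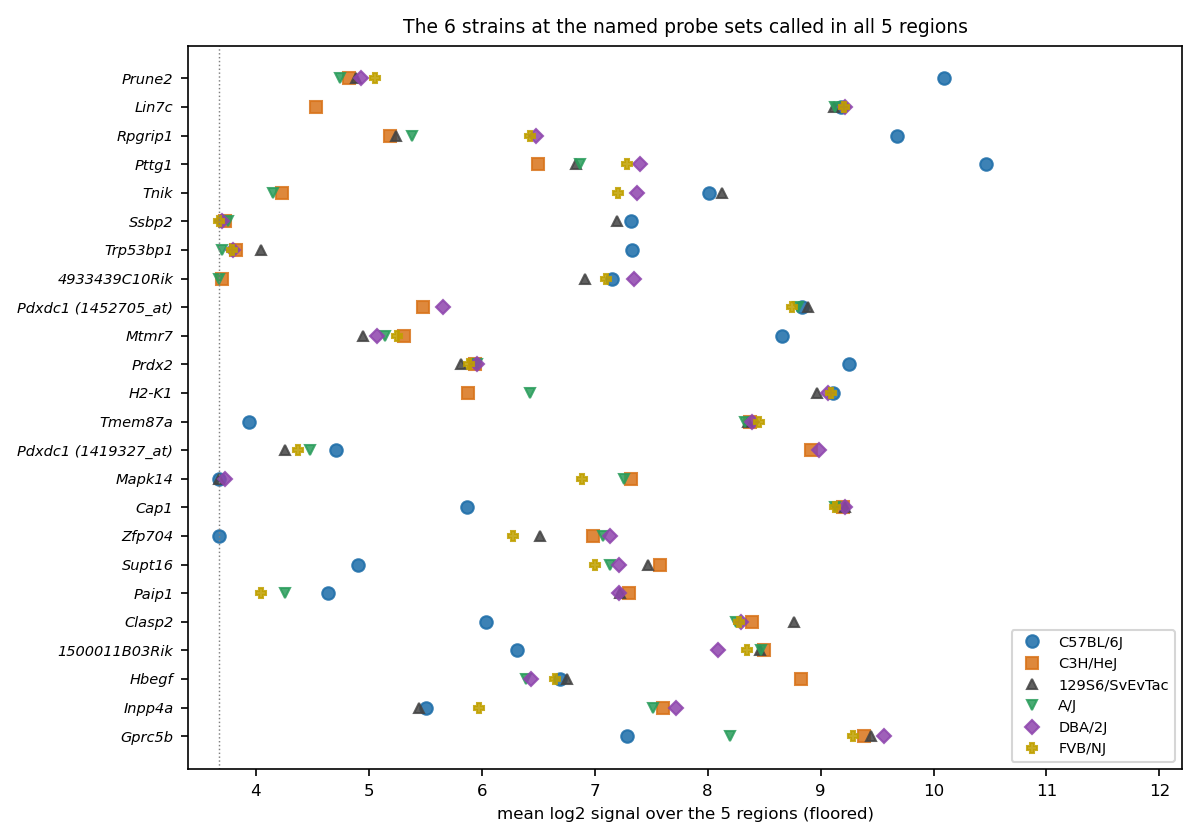
Mean log2 signal over the 5 regions of each of the 6 strains at the 24 named probe sets, with the floor as a dotted line. C57BL/6J stands alone at Prune2, Mtmr7, Prdx2, Tmem87a and Cap1, and C3H/HeJ stands alone at Lin7c and Hbegf.

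The MHC and antigen presentation genes gave the largest share of higher calls among the 20 gene lists: 8 of 23 measured genes were higher in C57BL/6J, none was lower, and the median difference was 0.29. For all 17692 measured genes, each by its brightest probe set, 738 were higher (4.17%), 978 were lower (5.53%) and the median was −0.01. These shares are the background for each list below that is counted over the regions together. With equal array medians the MHC list had 8 higher and 1 lower (median 0.18), and after quantile normalization 8 higher and none lower (median 0.14). MHC class I molecules present peptides at the cell surface to cytotoxic T cells, as a heavy chain (H2-K1, H2-D1 and relatives) bound to beta-2-microglobulin (B2m). Class I heavy-chain genes are near-identical copies that differ between haplotypes, and which copies a probe set reads in each strain is uncertain.

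B2m read 776 to 3833 with a median of 977 in C57BL/6J, and 417 to 2301 with a median of 527 in C3H/HeJ. Both strains had their highest values in the pituitary gland, and within each region the strains did not overlap. B2m was higher in C57BL/6J by 0.84 ± 0.06 (adjusted p = 5.92e-09, limma), with regional differences from 0.66 to 1.07. H2-D1 read 326 to 1990 against 119 to 759 and was higher by 1.51 ± 0.05. H2-K1 read 310 to 2504 against 32.5 to 337 and was higher by 3.22 ± 0.13 (9.68-fold), and of the other strains A/J was nearest to C3H/HeJ, at a mean of 115. These 3 genes were called in every region.

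Over the regions together 5 further MHC genes were called. They were the class I genes H2-M3 (0.46), H2-Q2 (1.15) and H2-T24 (1.01), the class II chain H2-Aa (0.77) and Nlrc5 (0.60), an activator of class I transcription. Within the pituitary gland, 1206 of all 17692 measured genes were higher in C57BL/6J, 1070 were lower and the median was 0.03. Of the 23 measured MHC genes, 8 were higher there, none was lower and the list's median was 0.87. The 8 included the class II invariant chain Cd74, at 709 and 1147 against 522 and 464, and H2-Aa, at 473 and 649 against 210 and 173. H2-Q2 was at or below the floor on all 11 C3H/HeJ arrays, and read 149 and 129 in the C57BL/6J pituitary gland and 59.6 and 49.4 in the hypothalamus. Of 28 interferon-induced genes only 1 was called, the GTPase Igtp (0.46), and it was lost with equal array medians; the list's median was 0.01 (−0.06 with equal medians).

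The promoters of the 3 MHC genes that were higher in every region are shown since these genes are known to share control elements. They come from RefSeq on build GRCm38.p6, 250 bases before to 50 bases after the start, 5′ to 3′ on the strand of the gene. H2-K1 is at chr17:34000298-34000597 on the minus strand (the first of 2 listed starts), H2-D1 at chr17:35262844-35263143 on the plus strand and B2m at chr2:122147437-122147736 on the plus strand. Capitals mark matches on either strand to GGGATTCCC (a kappaB motif), TTTCNNTT (the core of an interferon-stimulated response element, each strand) and TATAAA (a core promoter motif). In B2m the marked TATAAA match is on the opposite strand, and in H2-K1 it lies after the listed start. Whether these matches act as core promoter elements was not tested.

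H2-K1: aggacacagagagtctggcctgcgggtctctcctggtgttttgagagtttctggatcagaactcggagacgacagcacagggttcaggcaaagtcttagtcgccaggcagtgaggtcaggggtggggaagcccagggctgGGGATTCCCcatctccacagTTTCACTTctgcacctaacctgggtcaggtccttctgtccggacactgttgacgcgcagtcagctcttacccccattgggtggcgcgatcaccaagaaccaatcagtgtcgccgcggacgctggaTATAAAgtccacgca
H2-D1: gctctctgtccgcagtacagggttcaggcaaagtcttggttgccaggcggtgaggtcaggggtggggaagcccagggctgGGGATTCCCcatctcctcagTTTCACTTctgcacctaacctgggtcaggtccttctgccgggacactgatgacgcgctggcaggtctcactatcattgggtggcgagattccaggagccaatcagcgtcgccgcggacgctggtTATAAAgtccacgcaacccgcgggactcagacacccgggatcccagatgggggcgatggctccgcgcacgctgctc
B2m: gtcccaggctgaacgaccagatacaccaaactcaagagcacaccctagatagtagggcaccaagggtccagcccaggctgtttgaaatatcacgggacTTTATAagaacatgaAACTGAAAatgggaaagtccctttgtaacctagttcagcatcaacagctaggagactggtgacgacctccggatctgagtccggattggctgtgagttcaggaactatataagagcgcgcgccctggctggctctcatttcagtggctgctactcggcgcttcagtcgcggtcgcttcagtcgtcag

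GGGATTCCC was in H2-K1 and H2-D1 and not in B2m, and in 0.353% of the 32851 promoters of the same length (116). TTTCNNTT was in 23.9% and TATAAA in 13.6% of them, and both were in all 3. These matches describe the reference sequence, which is that of C57BL/6J, and say nothing of C3H/HeJ or of a factor's binding.

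Genes chosen because strain variants are known for them differed at 7 of 18: 6 were lower in C57BL/6J, 1 was higher, 11 were not called and the median was −0.11, with the same counts under both scalings. Of all measured genes, 5.53% were lower and 4.17% higher. Alad, the second enzyme of heme synthesis, read 90.3 to 160 in C57BL/6J with a median of 131, and 306 to 537 in C3H/HeJ with a median of 445. No arrays overlapped, and the difference of −1.69 ± 0.07 (adjusted p = 2.95e-12, limma) lay between −1.98 and −1.46 in the regions. Of the 10 measured genes of heme synthesis, the rate-limiting enzyme Alas1 was also lower (−0.30) and Ppox higher (0.22), and the list's median was −0.08; Ppox was lost with equal array medians.

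Gabra2, the alpha-2 subunit of the GABA-A receptor, is known to be low in C57BL/6J because of an intronic deletion in that strain. It read 199 and 209 against 578 and 589 in the hippocampus, and at or near the floor, 7.29 and 22.8 against 39.3 and 43.8, in the pituitary gland. The difference was −1.41 ± 0.10 over the regions and was called in each. Of 13 GABA-A receptor subunits, Gabra2 and Gabrb1 (−0.25) were lower, none was higher and the median was −0.0034. Glo1, a glyoxalase that some strains carry in extra copies, read 694 to 999 against 1106 to 1598 and was lower by −0.76 ± 0.04, also in every region.

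Nnt, a mitochondrial proton-pumping enzyme with a known deletion in C57BL/6J, read 165 to 401 against 240 to 583. It was lower over the regions (−0.60 ± 0.07) and called in 4 of them, with arrays not overlapping in any of the 5. Kcnj9, a potassium channel subunit opened by G proteins, was lower in the 4 brain regions, by −0.87 to −1.66, and not called in the pituitary gland, at 64.5 and 58.1 against 50.6 and 68.1. The nicotinic receptor subunit Chrna4 was lower (−0.33) and the apolipoprotein Apoa2 higher (1.16, at signals of 24 to 55.4 against 4.89 to 32.1).

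Of the cell type lists, microglia had 4 of 15 genes higher and 1 lower (median 0.12; 3 and 1 with equal array medians, 5 and 2 after quantile normalization). Of all measured genes, 4.17% were higher and 5.53% lower, which also applies to the cell type lists that follow. C1qb, a chain of complement C1q, read 183 to 358 in C57BL/6J with a median of 263, and 94.4 to 182 in C3H/HeJ with a median of 131. The lowest C57BL/6J array, of the pituitary gland, and the highest C3H/HeJ array, of the hippocampus, nearly met, but within regions the strains lay apart. C1qb was higher in each region, by 0.997 ± 0.09 over all (adjusted p = 1.27e-07, limma). Its partner chain C1qc (0.71) was higher in the bnst, hippocampus and pag and not called in the pituitary gland, at 141 and 184 against 158 and 152. The receptor adaptors Fcer1g (0.74) and Tyrobp (0.40, lost with equal array medians) were higher and the purine receptor P2ry12 lower (−0.29). In bulk tissue, fewer cells of a type and less RNA per cell cannot be told apart.

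Of 16 oligodendrocyte and myelin genes, the myelin protein Opalin (0.84) and the acetylaspartate-cleaving enzyme Aspa (0.39) were higher, none was lower and the median was 0.18. The median was 0.51 in the hippocampus and 0.36 in the hypothalamus. It was −0.44 in the pituitary gland, where Mobp (−2.61), Mal (−1.05) and Ugt8a (−0.78) were lower, Aspa was higher (0.77) and 1 C3H/HeJ array was high in myelin genes. Of 15 astrocyte genes, Sox9 was higher (0.55) and Fgfr3 lower (−0.40), with a median of 0.01. Of 13 endothelial genes, Cldn5 was higher (0.43) and Kdr (−0.58), Slco1a4 (−0.29) and Slc2a1 (−0.16) were lower, with a median of −0.02. Cldn5 was lost under both scalings and Slc2a1 after quantile normalization. No gene was called over the regions on the lists of pituitary hormones and regulators (22 measured, median −0.05), hippocampal principal neurons (19, −0.08), striatal medium spiny neurons (14, 0.07), red blood cells (7, 0.17), choroid plexus (13, −0.27) or immediate early genes (15, 0.29). Of 18 monoamine genes Qdpr was higher (0.24, lost with equal medians), with a median of 0.04.

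Among 21 glutamate receptor genes, Gria4 was higher (0.64) and Gria1 lower (−0.39), with a median of −0.03. Both encode AMPA receptor subunits, and both differed in a region-dependent way. Gria1 was lower in the bnst, hippocampus and pag and read 137 and 125 against 111 and 106 in the pituitary gland. Gria4 read 297 and 284 against 102 and 75.7 in the pituitary gland (1.72 ± 0.11), 732 and 792 against 436 and 443 in the pag, and 509 and 533 against 488 and 469 in the hypothalamus.

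Y-linked genes served as a check that all mice were male, and themselves differed. Eif2s3y (−1.05 ± 0.06) and Kdm5d (−0.89 ± 0.07) were lower in C57BL/6J in every region and Uty (−0.76 ± 0.09) was lower over the regions, so 3 of the 4 measured genes of that list were lower. Eif2s3y read 142 to 425 in C57BL/6J and 248 to 1006 in C3H/HeJ. Xist, which silences an X chromosome in females, read 12.8 to 108 against 11.4 to 61.2 and was not called.

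Differences confined to 1 region were defined as called in that region, not called in the others, and different from the mean of the other 4 regional differences (limma, adjusted p under 0.05). They numbered 2401 (5.45% of 44065), of which 2338 were in the pituitary gland, 24 in the hippocampus, 18 in the pag, 16 in the bnst and 5 in the hypothalamus. A direct test of whether the strain difference varied among regions called 1256 probe sets (2.85%). Without the 3 arrays high in Gh or Mbp, 950 were found in 1 region and 554 with a varying difference. Leaving out the C3H/HeJ pituitary gland array with Mbp at 3414 left 1114 in 1 region, and leaving out the other C3H/HeJ pituitary gland array left 1345. Counts rose without the C3H/HeJ pag array with Gh at 1089, to 3020 in 1 region and 1819 with a varying difference.

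In the bnst, Endou, a poly(U)-cutting endoribonuclease, read 131 and 138 in C57BL/6J and 14.4, 13.1 and 11.1 in C3H/HeJ. In the other regions both strains lay between −12.5 and 26.6. The bnst difference was 3.33 ± 0.25 (adjusted p = 5.55e-12, limma) and exceeded that of the other regions by 3.68. Crym, a thyroid hormone-binding protein, read 190 and 238 against 89.9, 27 and 38.8 in the bnst (2.22 ± 0.34). Arpp21, a phosphoprotein of striatal and cortical neurons, read 442 and 492 against 323, 118 and 83 (1.67 ± 0.33). At both genes the C3H/HeJ bnst array nearest to C57BL/6J was the first, which also had the most choroid plexus signal. The striatal marker Ppp1r1b followed the same order, at 420, 86.2 and 42.9, and read 322 and 386 in C57BL/6J, while the 14 striatal genes summed to 6077, 4009 and 5043 against 6044 and 6380. The part of neighbouring tissue in these differences was not tested. The lysosomal protein Glmp was lower, at 194 and 221 against 288, 291 and 232 (−0.38 ± 0.10).

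In the hippocampus, Col11a1, a fibrillar collagen chain, read 60 and 52 in C57BL/6J and 184 and 185 in C3H/HeJ (−1.72 ± 0.20). In each other region the strains differed at Col11a1 by no more than 0.26. Baiap2l1, an actin-bundling adaptor, read −5.43 and −4.54 against 334 and 332 in the hippocampus (−4.70 ± 0.54), and up to 93.2 elsewhere. Of the marker lists in the hippocampus, choroid plexus genes summed to 1450 and 6968 against 1310 and 4263, oligodendrocyte genes to 19466 and 17971 against 15006 and 14550, and monoamine genes to 3831 and 3855 against 3144 and 2908. Their part in the hippocampus differences was not tested. C1ql2, a secreted synapse organizer of dentate granule cells, was higher in C57BL/6J, at 526 and 626 against 218 and 312 (1.14 ± 0.24). The semaphorin receptor Plxnb2 (0.81) and Rassf8 (1.32) were higher and the formin Daam2 was lower (−0.81). The Rassf8 probe set was also called higher over the 5 regions together (0.58), with arrays not overlapping in 4 regions. Other Rassf8 probe sets were likewise called higher over the regions together (0.59 and 0.75), the first of them also in the pituitary gland (1.18). Plxnb2 and C1ql2 were lost with equal array medians.

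In the hypothalamus, Tshb, the beta subunit of thyrotropin, read 67.7 and 65.5 in C57BL/6J and 884 and 602 in C3H/HeJ (−3.45 ± 0.53; adjusted p = 2.61e-05, limma). In the pituitary gland, its main source, it read 4792 and 4728 against 4196 and 3715. In the hypothalamus Cga, the alpha subunit that pairs with it, also lay higher on both C3H/HeJ arrays, at 361 and 59.2 against 493 and 460, without being called. Gh read 5421 and 13.4 against 71.9 and 138 there, and Prl 1167 and −0.67 against 19.4 and 26.5. Summed over the 22 genes of pituitary hormones and regulators, the hypothalamus arrays read 12567 and 5677 in C57BL/6J and 7016 and 7302 in C3H/HeJ, with no gene of the list higher and 2 lower in C57BL/6J (Tshb and Chga). The part of pituitary tissue in the Tshb difference was not tested. Lrat, which esterifies retinol, read −1.75 and 6.71 against 157 and 98.6 (−3.28 ± 0.27), and at most 19.7 in every other region of either strain. The potassium channel Kcna2 (1.67) and Pdap1 (1.02) were higher in C57BL/6J, each at 1 probe set. Brighter probe sets of Kcna2 (mean signals of 562 and 576) and Pdap1 (737 and 803) were not called in the hypothalamus. The Kcna2 call was lost without C3H/HeJ hypothalamus replicate 2, and that of Pdap1 without the 3 arrays high in Gh or Mbp.

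In the pag the named differences were each under 1 on the log2 scale. Anapc1, a subunit of the anaphase-promoting complex, read 232 and 205 in C57BL/6J and 110 and 126 in C3H/HeJ (0.89 ± 0.12). Other Anapc1 probe sets were called elsewhere, 1 of them in the bnst (0.56) and hippocampus (0.52) and 1 in the pituitary gland (0.48), each higher in C57BL/6J, and neither was called in the pag. The DNA polymerase subunit Pold2 (0.68) and Fam207a (0.67) were likewise higher in C57BL/6J, but Fam207a was lost with equal array medians and Pold2 when the fit held only the 21 arrays. No probe set that named a single gene and was lower in the pag alone reached a mean signal over 100 in the brighter strain.

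The pituitary gland held nearly all differences of 1 region. Rab6b, a Golgi Rab GTPase of neurons, read 180 and 224 in C57BL/6J and 19.1 and 8.11 in C3H/HeJ (3.68 ± 0.12; adjusted p = 9.12e-23, limma). In the brain regions it read 1479 to 2421 in both strains and no regional difference there was beyond −0.20. Another Rab6b probe set, at mean signals of 779 and 564 over all regions, was higher in C57BL/6J by 3.01 in the pituitary gland and also by 0.74 in the hippocampus and 0.55 in both the hypothalamus and the pag. Psat1, an enzyme of serine synthesis, showed the reverse, at 50.8 and 80.3 against 558 and 529 in the pituitary gland (−3.09 ± 0.12) and 490 to 792 in the brain. The neuronal long noncoding RNA Snhg11 (204 and 232 against 38.1 and 39.3), the neuronal surface protein Thy1 (848 and 992 against 213 and 242) and Fam107a (565 and 562 against 115 and 84.6) were all higher in the C57BL/6J pituitary gland. All 3 were brighter on every brain array of either strain than in the pituitary gland.

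Gnrhr, the receptor of gonadotropin-releasing hormone, was measured by 3 probe sets, of which 2 were called in opposite directions. The first read 231 and 212 against 22.3 and 22.1 in the pituitary gland (3.31 ± 0.37), and the second 162 and 142 against 529 and 488 (−1.74 ± 0.49). The other, at mean signals of 17.6 and 15.4 over all regions, was not called in any region. Ano10 (11.7 and −16.6 against 135 and 160), the collagen Col19a1 (9.92 and 1.48 against 130 and 98.8) and the clock factor Arntl2 (1.75 and −4.74 against 101 and 112) were lower in the C57BL/6J pituitary gland. The RNA helicase Ddx5 was higher at 1 probe set (368 and 246 against 69 and 21.9), while 5 other Ddx5 probe sets were not called, and the call was lost with equal array medians. For Ddx5 (adjusted p = 0.13) and Ano10 (adjusted p = 0.17) the limma test over all regions did not call the difference between regions.

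Peptide genes of the hypothalamus differed in the pituitary gland, where 7 of 22 were lower in C57BL/6J, 2 were higher and the list's median was −0.00028. Of all 17692 measured genes, 1070 were lower and 1206 higher in the C57BL/6J pituitary gland. Avp, the precursor of vasopressin, read 130 and 166 in C57BL/6J and 888 and 1271 in C3H/HeJ (−2.86 ± 0.43). In the hypothalamus, where it is made, it read 5308 and 5298 against 4960 and 5530. Oxt, the oxytocin precursor, did not follow, at 1012 and 809 against 1001 and 958 in the pituitary gland. Gal (−1.94), Nmu (−1.43), Penk (−1.22), Cck (−1.16), Tac1 (−1.09) and Sst (−0.83) were also lower, and Adcyap1 (1.32) and Npy (0.91) higher. Myelin genes moved with 1 array there: the 16 oligodendrocyte genes summed to 1223 and 1120 in C57BL/6J and 996 and 6336 in C3H/HeJ. Avp was higher on both C3H/HeJ arrays, with and without that myelin signal. The part of the posterior lobe or of adjoining tissue in these differences was not tested. Pituitary hormones themselves were close, as with Gh at 13443 and 14097 against 12810 and 12317, and of 22 genes of that list 1 was higher (Avpr1b, 0.77) and 2 were lower (Chga, −0.42, and Gnrhr).

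**Figure D5:**
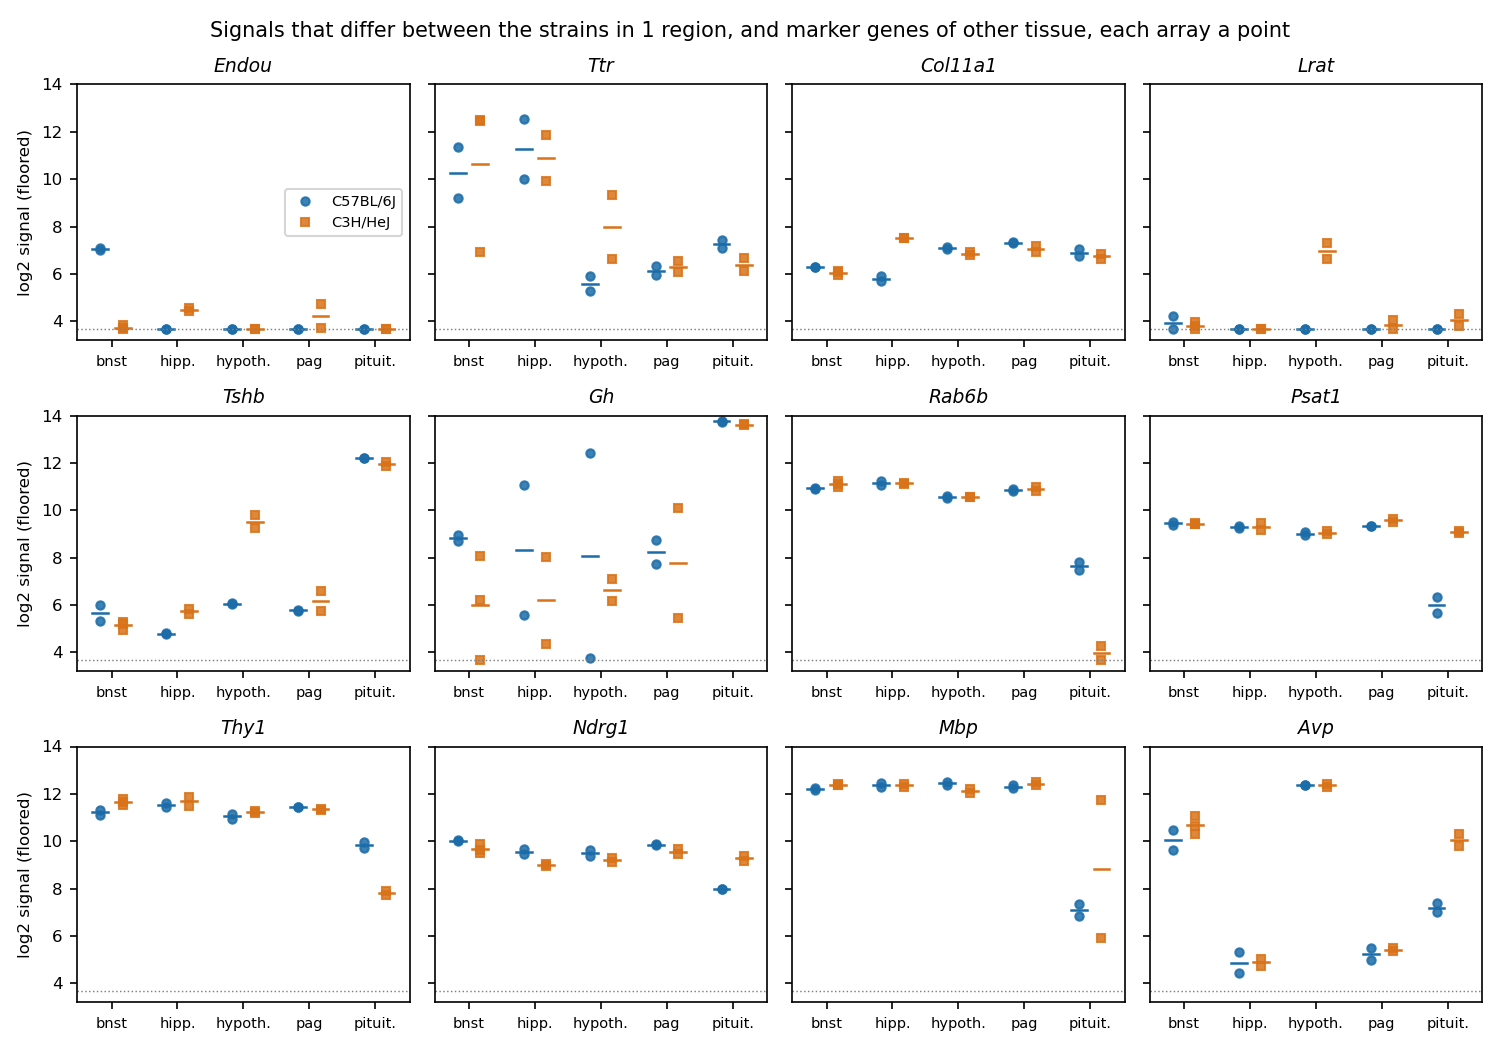
Log2 signal (floored) by region of 12 genes, with each array a point, group means as short lines and the floor as a dotted line. Endou separates the strains in the bnst, Col11a1 in the hippocampus, Lrat and Tshb in the hypothalamus, and Rab6b, Psat1 and Thy1 in the pituitary gland, while the marker genes Ttr (choroid plexus), Gh (pituitary gland) and Mbp (myelin) spread within a strain. Avp is about level in the hypothalamus and lower in the C57BL/6J pituitary gland.

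Differences that reversed between regions were rare: 92 probe sets (0.209%) were called higher in C57BL/6J in at least 1 region and lower in at least 1 other. The pituitary gland was 1 of the regions in 88 of them. Thy1 was 2.02 higher in the C57BL/6J pituitary gland and 0.43 lower in the bnst (−0.43), where it read 2573 and 2230 against 2942, 3516 and 3276. Arpp21 was at another probe set higher in the bnst (1.37) and lower in the pituitary gland (−2.30), at 26.5 and 18.7 against 121 and 99.3. A different Arpp21 probe set, brighter by mean signal (346 and 399), was not called in any region. Fcho1, a clathrin adaptor, was lower in the hippocampus (−0.91) and hypothalamus (−0.78) and higher in the pituitary gland (1.24). The linker histone H1f2 was higher in the bnst (0.85) and hippocampus (1.17) and lower in the pituitary gland (−0.92). Its bnst call was lost with equal array medians, and its pituitary call without the C3H/HeJ array high in Mbp or without C57BL/6J replicate 2.

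Probe sets of Aldh2, a mitochondrial aldehyde dehydrogenase, and Txn1, thioredoxin, shared 1 pattern. Aldh2 read 49.5 and 47 against 444 and 656 in the hippocampus, and 777 and 417 against 87.4 and 46.2 in the pituitary gland. Txn1 read 9.10 and 36.9 against 147 and 220 in the hippocampus, and 307 and 174 against 33.4 and 33.7 in the pituitary gland. The 1-region Ddx5 probe set moved likewise, at 11.1 and 53.3 against 109 and 198 in the hippocampus. At all 3 the arrays of the same group differed widely, for example 82.5 and 363 for Aldh2 in the C57BL/6J hypothalamus, and the regional standard errors were 0.77 to 0.996. The hippocampus call of Aldh2 was lost when any single hippocampus array was left out, and its pituitary call when any single pituitary gland array was left out. Kcnq5, a potassium channel of neurons, showed instead at 1 probe set a difference whose size followed the region. It read 183 and 186 against 2.84 and 13.3 in the hippocampus (3.83 ± 0.18) and was at the floor in both strains in the pituitary gland. The other Kcnq5 probe sets, at mean signals of 130 and 125 and of 54.5 and 48.9, were not called in any region. Ndrg1, a protein of myelinating glia, was higher in C57BL/6J in the hippocampus (0.56) and bnst (0.35) and lower in the pituitary gland, at 257 and 256 against 581 and 674 (−1.29 ± 0.11).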

How the data were processed

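Total RNA (10 µg an array) of 5 brain regions of 8-week-old male mice was measured on Affymetrix mouse genome 430 2.0 arrays. The authors processed the scanned arrays in the TeraGenomics system and deposited 1 linear intensity for each probe set and array, of which 5.31% were below 0 in these 21 arrays; version and scaling target are not given in the sources used here. Samples were grouped by title. Detection calls were not used. Gene names came from GEO's platform annotation: of 45037 probe sets, 34945 named 1 gene, 932 several and 9160 none.

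Values under the 20th percentile (12.8; 19.8% of values) were raised to it and log2 was taken. The overall difference was fitted with limma 3.58.1 (R 4.3.3; lmFit, eBayes with a trend) on 21 arrays with region as a block (15 residual degrees of freedom). Regional differences and the interaction were contrasts of 30 group means over all 61 arrays (31 residual degrees of freedom), so the arrays of the other four strains shaped the estimate of spread. Adjusted p values are Benjamini-Hochberg over all probe sets above the floor on at least 1 array. P values rest on the spread between arrays, each of 1 mouse or of a pool of mice. In the fit over the regions together, a strain difference that varied between regions added to that spread. With 2 arrays in most groups the number of arrays limits precision. The fits were tested on simulated data.

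Named genes had a single-gene probe set and a mean signal over 100 in the brighter strain: the 12 largest differences in each direction called in all 5 regions, the 3 with the largest contrast with the other regions in each region and direction, the 6 widest reversals, the 10 smallest interaction p values, and members of 20 gene lists by their brightest probe set (316 of 364 listed genes measured). Members, lists and tests were chosen with earlier results of these data known. Tables and figures were made in Python 3.11.15 with pandas 2.3.3, numpy 2.4.6, scipy 1.17.1 and matplotlib 3.10.9. Alternatives covered scaling, floor, filter, scale, trend, the arrays in the fit, the replicate number as a block and each array left out. Replicate numbers served only as names.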

Additional observations from a re-analysis of the deposited data

Results flagged for a closer look

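The strain difference varied between regions, by the limma interaction test, at 1256 probe sets, and 92 had calls in opposite directions in different regions. Among named genes the 10 smallest adjusted p of that test were those of Rab6b (6.48e-19), Psat1 (9.43e-16), Thy1 (1.91e-11), Kcnq5 (2.6e-11), H2-Q2 (2.04e-10), Snhg11 (2.04e-10), Ndrg1 (1.47e-09), Chrnb3 (1.72e-09), Endou (2.76e-09) and Fam107a (4.98e-09). In 8 of the 10 the pituitary gland carried the largest regional difference, and the exceptions were Kcnq5 (hippocampus) and Endou (bnst). Chrnb3, a nicotinic receptor subunit, read 159 and 176 in the C57BL/6J pituitary gland and 16 and 4.18 in that of C3H/HeJ, and at most 22.7 in the brain regions of either strain.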

How the results depend on the processing

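Direction was followed for the named differences only, and none of these reversed. Of 68 named differences, under 15 alternatives and 21 single-array omissions, 2127 of 2218 values kept direction and call and 91 lost the call. For the 24 named probe sets of all 5 regions, only the difference over the regions together was followed, and all 24 kept it throughout. Whether they stayed called in every region was not followed. Of the named differences followed in single regions, 11 of 23 of 1 region and 2 of 14 reversing ones kept their call. Equal array medians gave 966 calls in the hypothalamus, 707 with a varying difference and 1599 in 1 region, and 265 in all 5 regions, of which 245 were among the 377; quantile normalization shared 342 of its 388. A floor at the 40th percentile (34.2) gave 2288 with a varying difference and 3892 in 1 region, and the linear scale gave 2039 with a varying difference. Without the 3 arrays high in Gh or Mbp (added after seeing the data) counts were 776 in the hippocampus, 758 in the hypothalamus, 2212 in the pituitary gland, 554 varying, 950 in 1 region and 39 reversing. Leaving out 1 array gave 3431 to 4569 calls over the regions together, 839 to 1743 for the bnst, 2391 to 5374 for the pituitary gland, 719 to 1844 for the hippocampus, 693 to 1391 for the pag, 682 to 1558 for the hypothalamus, 713 to 1819 varying, 316 to 374 in all 5, 1114 to 3020 in 1 region and 49 to 156 reversing. Counts moved over 1.5 times without C57BL/6J bnst replicate 1 (952) or 2 (839), C57BL/6J hippocampus replicate 1 (903) or 2 (804) or C3H/HeJ hippocampus replicate 2 (719), C57BL/6J hypothalamus replicate 1 (803) or 2 (934) or C3H/HeJ replicate 2 (682), C57BL/6J pag replicate 2 (693), and C57BL/6J pituitary gland replicate 1 (2774) or C3H/HeJ pituitary gland replicates 1 (2839) or 2 (2391). Without C57BL/6J pituitary gland replicate 1 or C3H/HeJ pituitary gland replicate 1 or 2, 1358, 1345 and 1114 were in 1 region and 60, 59 and 49 reversed; the C3H/HeJ replicates left 759 and 713 varying, and without C3H/HeJ pag replicate 2, 156 reversed. Same-numbered arrays did not deviate together (r −0.0088 to 0.0792), and with the replicate number as a block counts were 3658 over the regions together, 377 in all 5 regions, 1429 varying, 2481 in 1 region and 112 reversing. Causes of these changes were not tested. Signals near the floor limit the dimmer strain's value at probe sets such as Zfp704 and Ssbp2.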
